A study of Arabidopsis thaliana with 3 samples.

Results

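Gibberellins are growth hormones of plants, and this account follows 10 Arabidopsis thaliana genes that make them, break them down or perceive them. The members were taken by locus from the first column of the deposited count files: the synthesis genes GA20OX1 (AT4G25420), GA20OX2 (AT5G51810) and GA3OX1 (AT1G15550), the inactivation genes GA2OX1 (AT1G78440), GA2OX2 (AT1G30040), GA2OX6 (AT1G02400) and GA2OX8 (AT4G21200), and the receptor genes GID1A (AT3G05120), GID1B (AT3G63010) and GID1C (AT5G27320). They are 10 of the 33602 genes listed. All 10 were present in each file, and 9 had at least 30 counts summed over the libraries, the filter used for calls; GA2OX1, with 7 counts in all, did not.

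RNA from first-pair rosette leaves of accession Col-0 was sequenced in 3 libraries, 1 for each group. The groups were leaf explants wounded 2 days before, a 2 d control titled MOT2D without further description, and a control titled T0. All carry the same recorded age of 12 days after sowing, and seedlings were raised on MS medium in 16 h of light and 8 h of dark before leaf explants were moved to B5 medium lacking carbohydrate. The series text names the wound site and the leaf residue, but which of these each library holds is not in the labels, nor is it said on what medium the 2 d control stood, whether its leaf had also been cut, how many plants were pooled or at what hour each sample was taken.

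Gibberellins are built from a diterpene in plastids and finished in the cytosol by 2-oxoglutarate-dependent dioxygenases. GA20OX enzymes shorten the carbon skeleton, GA3OX enzymes perform the last step to the active hormone, and GA2OX enzymes hydroxylate active forms or their precursors into inactive ones. The active hormone binds a soluble GID1 receptor, which then grips a DELLA protein, a repressor of growth genes, and delivers it to an F-box protein for destruction. In Arabidopsis the pathway is known for feedback at the transcript level: low gibberellin signalling goes with more GA20OX, GA3OX and GID1 transcript, and applied gibberellin with more GA2OX transcript. Gibberellins promote leaf growth, and in Arabidopsis KNOX homeobox proteins are known to hold their level low in the shoot meristem.

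Total gene counts ranged from 43099934 to 46713257 per library. Levels are given as CPM, counts relative to a library size scaled by TMM, a method that makes most genes level between libraries; 3 counts, the floor used where a library had 0, were worth 0.0597 CPM in the explant, 0.0629 in the 2 d control and 0.0791 at T0. With 1 library per group there was no replicate check, no p-value and no estimate of spread. Each ratio is followed in brackets by its exact 95% counting interval, and "called" means that this interval lay entirely past 2-fold. Calls therefore compare libraries, not conditions, and the intervals cover counting error only; without molecular identifiers, copies of 1 molecule may be counted more than once. The leaf markers fixed for mesophyll (RBCS1A, CA1, RCA and LHCB2.1, the last with a near-identical copy) summed to 4993 CPM in the explant, 6815 in the 2 d control and 10161 at T0. The markers were not alike: LHCB2.1 had 24.2, 26.7 and 1726 CPM in that order, and RBCS1A 1712, 2001 and 2395. Between explant and 2 d control 0 of the 4 were called, beside 10% higher and 6.74% lower of all genes. In bulk tissue fewer cells of a type and less RNA per cell cannot be told apart.

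In the comparison of the explant with the 2 d control, which sets the library labelled as wounded against the one labelled as control at the same day, 2 members were called higher, GA2OX6 and GID1B, and 1 was called lower, GA3OX1. Of the others, 6 were tested and not called. GA2OX1, below the filter and with 0 counts in both libraries, could not be compared. Over all 20109 genes past the filter 10% were called higher and 6.74% lower, and counts this small over 10 genes are read gene by gene. Against T0, 1 member was called higher in the explant (GID1B) and 4 lower (GA20OX1, GA20OX2, GA3OX1 and GA2OX2), where 17.8% and 13.3% of all genes were called. Between the 2 d control and T0, 0 members were called higher and 3 lower (GA20OX1, GA20OX2 and GA2OX6), where 8.69% and 8.43% of all genes were called. The explant and 2 d control ratios to T0 share the T0 library. The median log2 ratio of the 9 members past the filter was -0.43 for the explant over the 2 d control, -1.25 for the explant over T0 and -0.41 for the 2 d control over T0, where that of all tested genes was 0.00, 0.03 and 0.04. GA20OX2 passed the filter through T0, so it entered these medians and the calls against T0 through the library in which it was high. GA20OX1 also drew most of its counts from T0, but its 15 counts in the explant and 28 in the 2 d control pass the filter without T0. With scaling by total counts the median log2 ratio of all genes moved to 0.32 for the explant over T0 and to 0.31 for the 2 d control over T0, and the share of calls that were higher moved from 57.1% to 70.1% and from 50.8% to 67.7%; no member's call changed with that scaling.

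**Figure D1:**
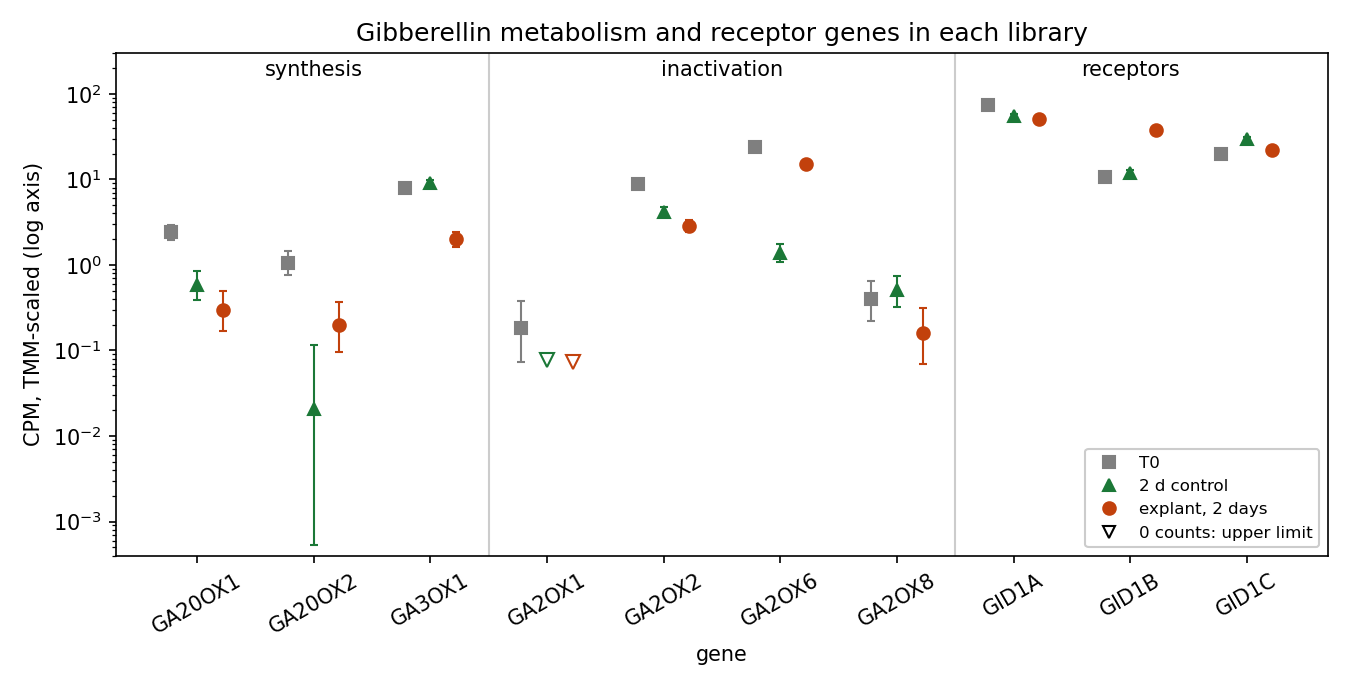
Level of each member in CPM (log axis) at T0 (squares), in the 2 d control (triangles) and in the explant (circles), 1 library each; bars are exact 95% Poisson counting intervals and open triangles the upper limit at 0 counts. GA2OX6 dips to 1.38 CPM in the 2 d control between 24.0 at T0 and 15.1 in the explant, GA3OX1 is lowest in the explant at 1.99 CPM, and GID1B is highest there at 38.2 CPM.

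Synthesis genes were lowest in the explant for 2 of 3 members. GA3OX1, the enzyme of the activating step, had 100 counts in the explant, 429 in the 2 d control and 303 at T0, or 1.99, 8.99 and 7.99 CPM. Both controls thus stood together and the explant apart from them. The GA3OX1 level in the explant was 4.52 times lower than in the 2 d control (3.62 to 5.67) and 4.01 times lower than in T0 leaf (3.19 to 5.08). Between the 2 d control and T0 its ratio was 1.13 (0.969 to 1.31), not called. Only 2.40% of all tested genes had a lower log2 ratio of explant to 2 d control than GA3OX1.

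Both GA20OX genes, of the step before, were rare in each library. GA20OX1 had 15 counts in the explant, 28 in the 2 d control and 91 at T0, or 0.299, 0.587 and 2.40 CPM. It was 8.04 times lower in explant leaf than in T0 leaf (4.63 to 14.9) and 4.09 times lower in the 2 d control than in T0 leaf (2.65 to 6.49). The explant to 2 d control ratio of GA20OX1 was 0.509 (0.253 to 0.986), so its order is T0 above both 2 d libraries, with the last pair not separated by the rule. GA20OX2 had 10, 1 and 40 counts in the same order of libraries, or 0.199, 0.0210 and 1.06 CPM. It was 5.30 times lower in explant leaf than in T0 leaf (2.60 to 11.9) and 50.3 times lower in the 2 d control than in T0 leaf (8.53 to 2037), the upper bound resting on a single count. The explant to 2 d control ratio of GA20OX2, 9.50 (1.35 to 412), was not called: a difference of 2-fold could not be shown at this depth. Summed over the 3 synthesis members, counts were 125 in the explant, 458 in the 2 d control and 434 at T0. That sum was 3.86 times lower in explant leaf than in the 2 d control (3.16 to 4.74), and GA3OX1 supplied 80.0% of it in the explant (71.9 to 86.6), 93.7% in the 2 d control (91.0 to 95.7) and 69.8% at T0 (65.3 to 74.1).

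Among the GA2OX members, GA2OX6 and GA2OX2 supplied most of the counts. Both encode enzymes that act on active gibberellins and their direct precursors. GA2OX6 had 759 counts in the explant, 66 in the 2 d control and 910 at T0, or 15.1, 1.38 and 24.0 CPM. The 2 d control stood far below both other libraries. GA2OX6 was 10.9-fold higher in the explant than in the 2 d control (8.49 to 14.3) and 17.4 times lower in the 2 d control than in T0 leaf (13.5 to 22.6). The explant to T0 ratio was 0.630 (0.571 to 0.694), not called. Of all tested genes 0.766% had a lower log2 ratio of 2 d control to T0 than GA2OX6, and 96.6% a lower log2 ratio of explant to 2 d control. GA2OX6 ranged 17.4-fold from its highest to its lowest library. GA20OX2 ranged 50.3-fold, but on 1 count in its lowest library.

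GA2OX2 followed another order. It had 143 counts in the explant, 200 in the 2 d control and 338 at T0, or 2.85, 4.19 and 8.92 CPM, so it stood highest at T0 and lowest in the explant. It was 3.13 times lower in explant leaf than in T0 leaf (2.57 to 3.83), which was called, and 2.13 times lower in the 2 d control than in T0 leaf (1.78 to 2.55), which was not. Its explant to 2 d control ratio was 0.679 (0.544 to 0.846), also not called. GA2OX8, of the class that acts on earlier precursors with the longer carbon skeleton, was counted 8, 24 and 15 times in the explant, 2 d control and T0 libraries, or 0.159, 0.503 and 0.396 CPM. None of its ratios was called; that of explant to 2 d control was 0.317 (0.123 to 0.729). GA2OX1, which acts on active gibberellins like GA2OX2, had 7 counts at T0, 0.185 CPM, and 0 in both 2 d libraries. With the floor of 3 counts set per library it was 3.09 times lower in the explant and 2.94 times lower in the 2 d control. The exact counting intervals allowed as little as 1.91 and 1.81 times lower, which is within 2-fold.

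The make-up of the 4 GA2OX members also differed between libraries. Per kilobase of coding sequence GA2OX6 held 83.9% of their summed CPM in the explant, 23.4% in the 2 d control and 72.4% at T0, and GA2OX2 held 15.3%, 68.3% and 25.9%. On counts alone the exact binomial 95% interval of the GA2OX6 share ran from 80.8% to 85.8%, from 18.1% to 28.0% and from 69.1% to 74.1%, with no overlap between libraries. Counts summed over the GA2OX members were 910, 290 and 1270, which made the sum 2.98-fold higher in the explant than in the 2 d control (2.61 to 3.41) and 5.51 times lower in the 2 d control than in T0 leaf (4.85 to 6.28). The summed level of GA2OX per kilobase stood at 7.96 times that of the 3 synthesis members in the explant, 0.673 times in the 2 d control and 3.20 times at T0. These are ratios of RNA levels and say nothing of enzyme activity or hormone content.

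**Figure D2:**
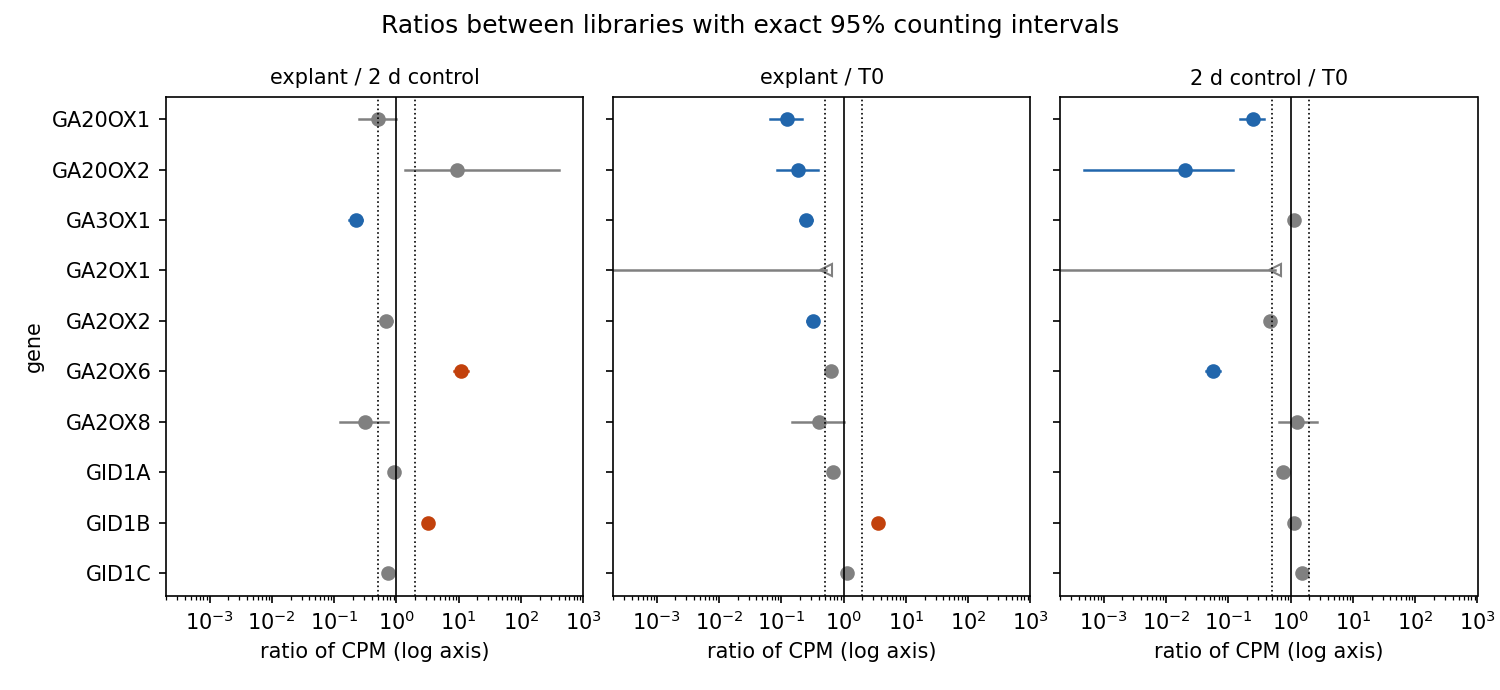
Ratio of CPM between libraries for each member (log axis) with exact 95% counting intervals; dotted lines mark 2-fold either way, red points are called higher, blue points lower, grey points not called, and open arrows mark the interval bound where 1 library had 0 counts. GA2OX6 is called in the explant over the 2 d control (10.9) and in the 2 d control over T0 in the other direction, while GID1B is called higher only in the 2 comparisons that hold the explant.

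Receptor genes were the most abundant members in each library except at T0, where GA2OX6 stood second per kilobase. GID1A had 2544 counts in the explant, 2643 in the 2 d control and 2793 at T0, or 50.7, 55.4 and 73.7 CPM. GID1C had 1105, 1415 and 743 counts, or 22.0, 29.7 and 19.6 CPM. Neither gene was called in any comparison. The interval of each of their ratios lay within 2-fold, the outermost being those of GID1C in the 2 d control over T0 at 1.51 (1.38 to 1.66) and of GID1A in the explant over T0 at 0.688 (0.651 to 0.726). GID1B had 1917 counts in the explant, 569 in the 2 d control and 399 at T0, or 38.2, 11.9 and 10.5 CPM. As with GA3OX1, both controls stood together and the explant apart, here above them. GID1B was 3.20-fold higher in the explant than in the 2 d control (2.91 to 3.52) and 3.63-fold higher than in T0 leaf (3.25 to 4.05), whereas its 2 d control to T0 ratio was 1.13 (0.995 to 1.29).

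The summed receptor level was nearly level across libraries while its make-up was not. GID1 counts summed to 111 CPM in the explant (108 to 114), 97.0 in the 2 d control (94.2 to 99.8) and 104 at T0 (101 to 107). Per kilobase of coding sequence GID1B held 33.6% of the receptor transcripts in the explant, 11.9% in the 2 d control and 9.80% at T0. GID1A held 46.3%, 57.3% and 71.2%, and GID1C 20.1%, 30.8% and 19.0%. On counts, the exact 95% interval of the GID1B share was 33.2% to 35.7% in the explant, 11.4% to 13.3% in the 2 d control and 9.21% to 11.1% at T0. The order of levels per kilobase was GID1A, GID1B, GID1C in the explant and GID1A, GID1C, GID1B in both controls, with no overlap of counting intervals between receptors within a library. GID1A and GID1C are the closer pair, with 83.5% identity over 1036 aligned coding bases, against 70.9% for GID1A with GID1B, and in Arabidopsis GID1B is the receptor known for stronger binding of DELLA proteins.

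**Figure D3:**
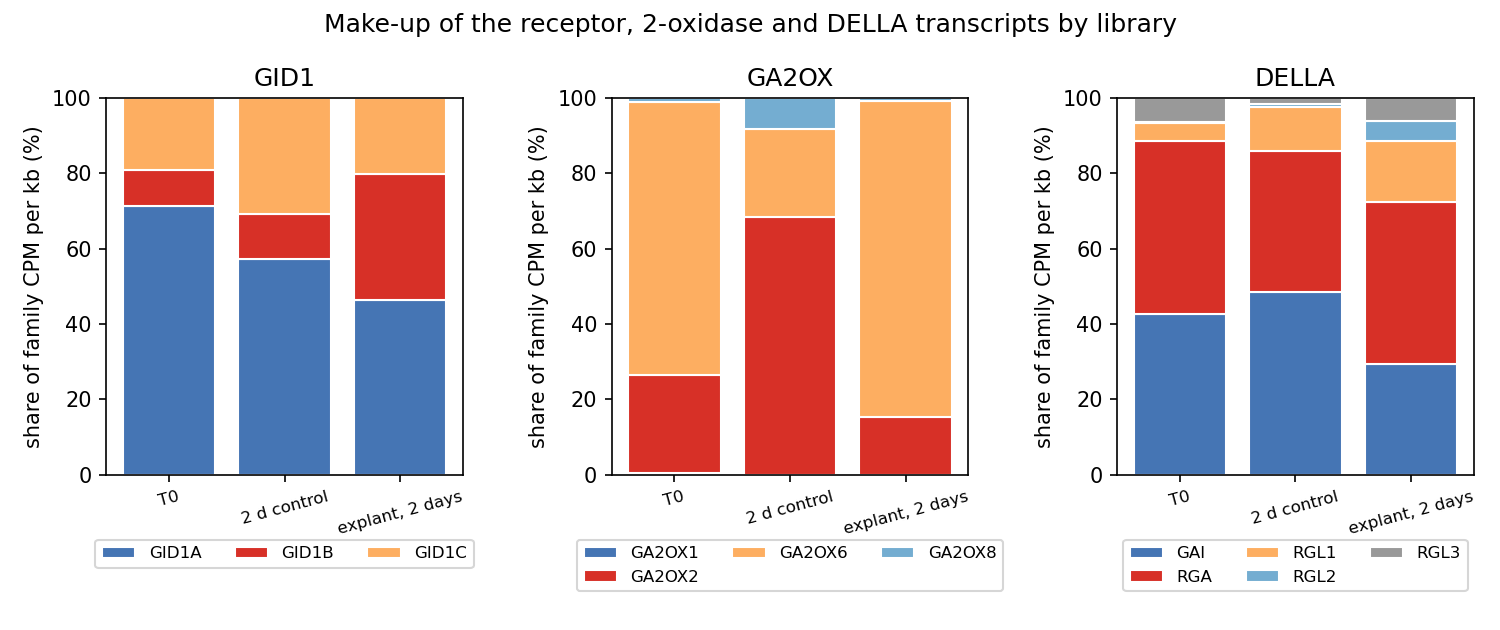
Share of each member in the summed CPM per kilobase of coding sequence (linear axis, percent) for the GID1 receptors, the 4 GA2OX members and the 5 DELLA genes, 1 library per bar. GID1B takes 33.6% of the receptor bar in the explant against 9.80% at T0, GA2OX6 drops to 23.4% of its family in the 2 d control, and RGL2 reaches 5.46% of the DELLA bar in the explant.

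Levels of neighbouring members overlapped within counting error only among the rare ones and in the middle of the T0 order. Per kilobase at T0, GID1B (9.77 CPM), GA2OX2 (8.69) and GA3OX1 (7.42) overlapped with their neighbours, as did GA2OX8 with GA2OX1. In the explant GA20OX1, GA20OX2 and GA2OX8, at 0.263, 0.175 and 0.157 CPM per kilobase, had counting intervals that overlapped one another, and that of GA2OX8 also overlapped the limit of GA2OX1 at 0. In the 2 d control the pairs GA20OX1 with GA2OX8 and GA20OX2 with GA2OX1 overlapped. GA3OX1 stood above GA2OX6 per kilobase in the 2 d control, at 8.35 against 1.40 CPM, and below it in the explant, at 1.85 against 15.3, and at T0.

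A likeness of pattern was measured as the distance between genes in the 2 log2 ratios to T0, over 7996 other genes with a symbol and at least 150 counts. The genes nearest to GA3OX1 were AGP21, an arabinogalactan protein gene, at a distance of 0.12, and the bHLH gene NAI1, known for endoplasmic reticulum bodies, at 0.15. AGP21 had 20.2 CPM in the explant, 101 in the 2 d control and 87.2 at T0, so it too was low in the explant alone. The genes nearest to GA2OX6 were PUB19, a U-box ubiquitin ligase gene, at 0.25, and BPS3 at 0.49; these were the only 2 of the 7996 within 0.5. PUB19 had 13.7 CPM in the explant, 1.55 in the 2 d control and 22.8 at T0. GID1A had 1486 genes within 0.5, the nearest of them RA-5 and SPL2 as the reference names them. These distances rest on 3 libraries and describe them only.

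Early steps of synthesis, which the member list leaves out, were also lower in the 2 d libraries than in T0 leaf for the first enzymes. GA1 (AT4G02780) is the copalyl diphosphate synthase that commits the diterpene to gibberellin. It had 0 counts in the explant, 21 in the 2 d control and 65 at T0. With the floor of 3 counts its explant level was 7.37 times lower than in the 2 d control and 28.7 times lower than in T0 leaf. The exact counting intervals allowed as little as 5.48 and 22.7 times lower. In the 2 d control GA1 was 3.90 times lower than at T0 (2.35 to 6.71), a call lost with scaling by total counts. GA1 passed the filter through T0, where it was highest, so a lower level than at T0 was favoured by that choice. GA2, the ent-kaurene synthase of the next step, had 4.64, 4.82 and 28.7 CPM in the explant, the 2 d control and at T0, 6.17 times lower in explant leaf than in T0 leaf (5.36 to 7.14). GA3, the ent-kaurene oxidase, went the other way, 2.45-fold higher in the explant than in T0 leaf (2.24 to 2.68). KAO1, one of a pair of ent-kaurenoic acid oxidases, was 2.22 times lower in explant leaf than in the 2 d control (2.02 to 2.44), a call lost with total counts and with DESeq2 size factors, and KAO2 was not called. In all, 0 of these 5 genes were called higher and 2 lower between explant and 2 d control, beside 10% and 6.74% of all genes. The remaining 6 GA20OX and GA3OX genes all stayed below the filter, with at most 8 counts in any library.

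Of 7 further inactivation genes, 6 were below the filter. The exception was GAMT2, a gibberellin methyltransferase, at 3.48 CPM in the explant, 1.59 in the 2 d control and 0.237 at T0. GAMT2 was 14.7-fold higher in the explant than in T0 leaf (7.56 to 32.6) and 6.71-fold higher in the 2 d control than in T0 leaf (3.35 to 15.2); its explant to 2 d control ratio of 2.19 (1.66 to 2.90) was not called. GA2OX4, a 2-oxidase that KNOX proteins are known to promote in Arabidopsis, was counted 12 times in explant leaf and 0 times in either control. With the floor of 3 counts in the 2 d control it was 3.80-fold higher in the explant, though under the filter. The exact counting interval of that ratio began at 2.64. Among the genes known to act on gibberellin genes, explant reads of the KNOX gene STM numbered 20, with 0 in either control, and KNAT1 had 11, 0 and 2. The other shoot meristem markers were at or near 0, WUS with 1 count in the explant and CLV3 with 0 in all libraries; their part in the GA2OX4 counts was not tested.

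The DELLA genes, whose proteins GID1 receptors bind, split in the explant. GAI had 37.9 CPM in the explant, 122 in the 2 d control and 157 at T0, and RGA had 61.6, 104 and 186. GAI was 3.23 times lower in explant leaf than in the 2 d control (3.06 to 3.40) and 4.14 times lower than in T0 leaf (3.93 to 4.36). RGA was 3.01 times lower in explant leaf than in T0 leaf (2.89 to 3.14). Its explant to 2 d control ratio of 0.592 (0.566 to 0.619) was not called, nor was that of 2 d control to T0 at 0.560 (0.540 to 0.581). RGL2, best known from seeds, had the opposite order: 7.25 CPM in the explant, 2.03 in the 2 d control and 1.03 at T0, 3.56-fold higher than in the 2 d control (2.84 to 4.51) and 7.05-fold higher than in T0 leaf (5.06 to 10.1). Of the 5 DELLA genes, 1 was called higher and 1 lower between explant and 2 d control, 1 higher and 3 lower between the explant and T0, and 0 higher and 1 lower between the 2 d control and T0; the last was RGL3, 5.41 times lower (4.63 to 6.34). The shares over all genes were 10% and 6.74%, 17.8% and 13.3%, and 8.69% and 8.43%. The summed DELLA level per kilobase was 80.8 CPM in the explant, 158 in the 2 d control and 229 at T0, and its ratio to the summed GID1 level was 0.766, 1.69 and 2.30. Among 4 genes for DELLA turnover and modification, 1 was called, SNE, an F-box gene related to SLY1, 3.91 times lower in explant leaf than in the 2 d control (2.39 to 6.67). SLY1, the F-box protein of DELLA destruction, had 21.5, 18.2 and 17.3 CPM and was not called in any comparison, nor were SPY and SEC, which attach sugars to DELLA proteins.

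Genes downstream of DELLA proteins and gibberellin carriers were read from further lists. Of 11 partners and output genes, 0 were called higher and 4 lower in explant leaf than in the 2 d control, beside 10% and 6.74% of all genes. These were GASA6, GNL, GASA4 and IDD2, of which GASA4 and GASA6 are raised by gibberellin, GNL is a chlorophyll-linked GATA factor that gibberellin represses, and IDD2 is a zinc finger partner of DELLA proteins. Of the GASA6 exon bases 22.6% lie in another gene model as well, so its counts are uncertain. GASA4 was 3.59 times lower (3.35 to 3.85) and GNL 32.5 times lower (26.3 to 40.7), so genes known for opposite responses to the hormone stood on the same side. Against T0, the explant had 3 of these 11 higher and 5 lower, beside 17.8% and 13.3% of all genes. SCL3, a DELLA target, was 4.61-fold higher (4.11 to 5.18), GASA1, of the same peptide family as GASA4, 2.51-fold higher (2.43 to 2.60), and PRE1, a growth gene raised by gibberellin, 54.9 times lower (33.6 to 96.6). In the 2 d control over T0, 4 were higher and 2 lower, beside 8.69% and 8.43% of all genes. GNL was 7.71-fold higher (6.81 to 8.76), its relative GNC 4.93-fold higher (4.54 to 5.35) and SCL3 3.19-fold higher (2.83 to 3.60). PRE1 was 33.4 times lower (22.4 to 52.0) and AT1G22690, without a symbol in the reference, 2.28 times lower (2.18 to 2.39), a call lost with scaling by total counts. Of 3 carriers, SWEET14, able to move sucrose and gibberellin, was counted 33 times in explant leaf and 0 times in either control. With the floor of 3 counts in the 2 d control SWEET14 was 10.4-fold higher in the explant. The exact counting interval of that ratio began at 8.03. SWEET14 passed the filter through the explant alone, so a difference was bound to appear. NPF3.1 (AT1G68570), a gibberellin importer, was 5.11-fold higher in the explant than in T0 leaf (4.44 to 5.89) and 6.0-fold higher in the 2 d control than in T0 leaf (5.22 to 6.91); 22.2% of its exon bases lie in another gene model as well, so its counts are uncertain.

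**Figure D4:**
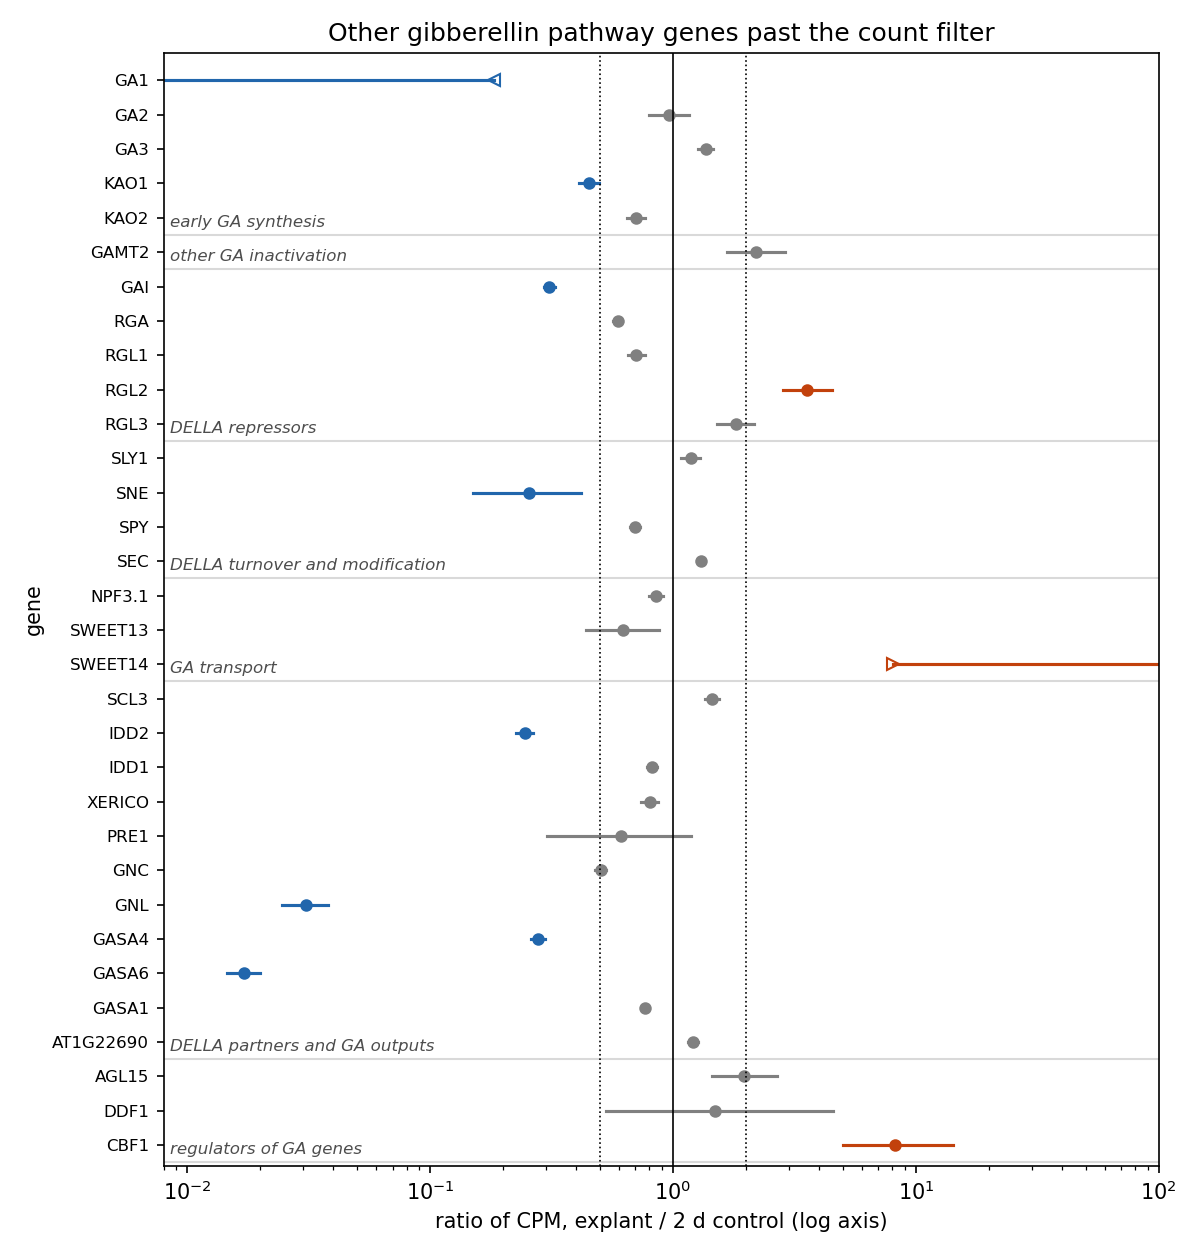
Ratio of CPM between explant and 2 d control (log axis) for the 32 other pathway genes past the count filter, grouped by list, with exact 95% counting intervals; dotted lines mark 2-fold, red and blue points are called higher and lower, and open arrows mark the interval bound where 1 library had 0 counts. The 3 genes called higher are RGL2, SWEET14 and CBF1, and the 8 called lower reach from KAO1 at 0.451 to GASA6.

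Over all 47 further pathway genes, 15 stayed below the filter. Of the remaining 32, 3 were called higher and 8 lower between explant and 2 d control, 9 higher and 13 lower between the explant and T0, and 7 of each between the 2 d control and T0. Among all tested genes the shares called higher and lower were 10% and 6.74%, 17.8% and 13.3%, and 8.69% and 8.43% in the same order, so 3 of 32 higher is near the background. The median log2 ratio of the 32 was -0.35, -0.64 and -0.01 in these comparisons, beside 0.00, 0.03 and 0.04 for all genes tested. Without SWEET14, 2 of 31 were higher between explant and 2 d control and 8 of 31 between the explant and T0. Of 6 regulators listed, 3 passed the filter, and 1 of these was called higher and 0 lower between explant and 2 d control. It was CBF1, a cold-response factor, which had 3.09 CPM in the explant, 0.377 in the 2 d control and 53.6 at T0. CBF1 was 8.18-fold higher in the explant than in the 2 d control (5.01 to 14.2). Like GA2OX6 it was lowest in the 2 d control. Unlike GA2OX6, which was not called there, CBF1 was 17.4 times lower in explant leaf than in T0 leaf (14.7 to 20.6). DDF1, a close relative of CBF1 known to activate a GA2OX gene, had 0.219, 0.147 and 20.9 CPM, and was 95.3 times lower in explant leaf than in T0 leaf (53.0 to 192). It passed the filter through T0 alone. AGL15, a MADS-box factor known to promote GA2OX6, had 2.67, 1.36 and 0.317 CPM and was 8.43-fold higher in the explant than in T0 leaf (4.67 to 16.7). AGL15 was lowest at T0, where GA2OX6 was highest. The part of these regulators in the member levels was not tested.

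Values of other kinds moved with these comparisons. Transcripts of GID1 genes and of several gibberellin enzymes are known to vary over the day in Arabidopsis. Of 10 clock genes, 7 were called lower and 1 higher in the explant than in T0 leaf. In the 2 d control 7 were called lower and 0 higher than in T0 leaf. Between explant and 2 d control 0 were called either way, beside 10% higher and 6.74% lower of all genes. In that comparison PRR5 had a ratio of 2.07 (1.83 to 2.34), LHY 1.96 (1.60 to 2.41) and GI 1.94 (1.64 to 2.30). ELF3 went the other way, at 75.5 CPM in the explant and 151 in the 2 d control. TOC1, PRR7, ELF4 and LUX were also lower, by less. The hour of sampling is not recorded, so time of day and treatment cannot be told apart in any of these comparisons. PRR7, a clock repressor of the day, stood at 5.54 CPM in the explant, 7.02 in the 2 d control and 531 at T0. PRR9, of the same family and with a near-identical copy, had 3, 1 and 627 counts and passed the filter through T0 alone. GI, a clock gene of the evening, was 96.5 times lower in the 2 d control than in T0 leaf (84.1 to 111). LHY, a morning factor, had 5.95, 3.04 and 2.06 CPM and was 2.89-fold higher in the explant than in T0 leaf (2.25 to 3.76). CCA1, also among these clock genes, went the other way and stood highest at T0. Its levels were 0.916, 0.545 and 32.5 CPM, with an explant to T0 ratio of 0.0282 (0.0205 to 0.0378). Phloem markers summed to 313, 643 and 762 CPM, with 2 of 3 called lower in explant leaf than in the 2 d control, beside 6.74% of all genes. Epidermis markers summed to 236, 436 and 536 CPM with 1 of 3 called lower, and xylem markers to 6.37, 12.7 and 50.4 CPM with 0 of 3 called. The epidermis marker PDF1 went against its sum, with an explant to 2 d control ratio of 1.67 (1.23 to 2.27), not called. Guard cell markers summed to 69.1, 89.6 and 127 CPM and trichome markers to 1.59, 3.04 and 2.03, with 0 called in that comparison. The guard cell sum moved through KAT1, at 17.7, 34.5 and 75.3 CPM. FAMA had 32.9, 37.0 and 35.2 CPM, and MYB60 18.5, 18.1 and 16.9. Against T0 more markers were called lower: in the explant 3 of 3 for xylem, 2 of 3 for phloem, 2 of 3 for epidermis, 2 of 4 for mesophyll and 1 of 3 for guard cells, and in the 2 d control 3 of 3 for xylem, 0 of 3 for phloem, 1 of 3 for epidermis, 1 of 4 for mesophyll and 1 of 3 for guard cells. Of all genes 13.3% were called lower in the explant than in T0 leaf and 8.43% in the 2 d control. In the 2 d control 1 of 2 trichome markers was called higher than in T0 leaf, beside 8.69% of all genes. That marker, GL3, passed the filter through the 2 d control, where it was highest. Root markers held 30 counts in the explant and 8 in the 2 d control, all from WOX5, with PLT1 and RHD6 at 0 in each library. WOX5 was called higher in the explant than in T0 leaf, but it passed the filter through the explant, so a difference was bound to appear. The part of these cell types in the member ratios was not tested.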

How the data were processed

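The authors deposited whole-number read counts per gene, not normalized, for 3 libraries; the submitters' processing notes name FastQC, HTSeq, DESeq and the build TAIR10, without role or version. Not given in the sources used here are the aligner, the strand setting and the kit. Reads in no gene (0.677% to 0.763%) and reads assigned to more than one gene (2.12% to 2.18%) were kept out. Depth was 43099934 to 46713257 counts per library.

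TMM factors came from edgeR 4.0.16 under R 4.3.3 over the 20109 genes with at least 30 counts summed. Ratios of scaled counts received exact Clopper-Pearson 95% intervals from the split of a gene's counts (scipy 1.17.1), and calls needed the interval beyond 2-fold; 1 library per group allowed no model test. Log2 ratios used a prior count of 0.5. The interval method was run on simulated Poisson counts without any spread beyond counting. That checks the calculation only and says nothing of the spread between replicates. Symbols, coding lengths and overlaps came from the RefSeq annotation of TAIR10.1, which the submitters do not name, so no coordinates or sequences are given; all 90 list loci matched by locus tag. By blastn 2.17.0, 0 of 10 members had a match of 95% identity over 100 bases, and 0 shared exon bases with another gene model.

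Alternatives were DESeq2 1.42.0 size factors, total counts, filters of 1 and 150 counts, a 4-fold limit, a stricter interval level, a prior count of 5 and shares without length. Members and lists were chosen with earlier results of these data known. The text names all members, per list and comparison up to 2 genes higher and 2 lower with the nearer interval bound farthest from 1, and the 2 genes most like the most counted member of each role; values are given for part of their ratios, and any other gene with a value was added after its value was seen.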

Additional observations from a re-analysis of the deposited data

How the results depend on the processing

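No call of a member was lost or gained with DESeq2 size factors, total counts or a filter of 1 count, and no called ratio of a member or listed gene crossed 1 under any alternative run. With total counts 4 ratios that were not called did cross 1: KAO2 (0.878 to 1.06) and SPY (0.986 to 1.19) for the 2 d control over T0, and IDD1 (0.841 to 1.03) and XERICO (0.819 to 1.00) for the explant over T0. An interval level stricter than 95% ended 1 member call, GA20OX2 lower in the explant than at T0 (ratio 0.189). A 4-fold limit left 1 member higher (GA2OX6) and 0 lower for the explant over the 2 d control, 0 higher and 1 lower (GA20OX1) for the explant over T0, and 0 higher and 2 lower in place of 3 for the 2 d control over T0, where GA20OX1 lost its call. With that limit 974 genes in all were higher and 369 lower for the explant over the 2 d control, 1582 and 980 for the explant over T0, and 458 and 563 for the 2 d control over T0. A filter of 150 counts removed GA20OX1, GA20OX2 and GA2OX8 from testing and so left 2 members lower for the explant over T0 and 1 for the 2 d control over T0. With a prior count of 5 the members' median log2 ratio of explant to T0 was -0.90 in place of -1.25. The GID1B and GA2OX6 shares per kilobase lay within the counting intervals of their shares of counts; those of some DELLA genes did not, such as RGA in the explant at 43.2% per kilobase and 45.8% of counts. No paired analysis was possible because each group has 1 library. Depth limits GA20OX1, GA20OX2, GA2OX1 and GA2OX8, whose libraries held at most 91 counts each, and the lack of replicates limits all ratios.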
